A study of Mus musculus with 4 samples.

Results

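The interleukin-1 (IL-1) family genes and their receptors were examined in mouse colonic epithelium on day 7 of colitis induced by dextran sulfate sodium (DSS), a polysaccharide that injures the epithelium when given in the drinking water. They were chosen by symbol, and 9 were taken of the 16015 genes in the deposited table, namely *Il1a*, *Il1b*, *Il1rn*, *Il18*, *Il33*, *Il1r1*, *Il1r2*, *Il1rl1* and *Il1rap*. All 9 were tested, together with the other genes whose mean over the 4 libraries was at least 10 normalized counts (13983 in all). The study asked how the clock factor BMAL1 in the intestinal epithelium shapes colitis. Bulk RNA sequencing covered 2 control mice, labelled WT and of genotype *Bmal1* fl/fl without Cre, and 2 mice labelled *Bmal1* cKO, of genotype *Villin-CreERT2;Bmal1* fl/fl. The *Villin* promoter drives the Cre in intestinal epithelium and tamoxifen activates it, so other cell types keep the gene, and the sources do not state whether the WT mice of this experiment also received it. Both groups were on the C57BL/6 background, carried the floxed allele and received DSS followed by plain water. The study's methods describe its mice as littermates a few months old. The cells were crypts scraped from the colon after EDTA, without a sort.

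IL-1 family cytokines are alarm signals of barrier tissues. IL-1α, IL-33 and IL-18 are stored by epithelial and stromal cells or made there constantly, whereas IL-1β is made mostly by myeloid cells after a microbial or injury signal, and IL-1β and IL-18 are cut to their active form by caspase-1 in inflammasomes. IL-1α and IL-1β signal through IL1R1 together with the shared chain IL1RAP, IL-33 signals through ST2 (the *Il1rl1* product) with the same chain, and the pathway is held back by the receptor antagonist IL1RN and by the decoy receptor IL1R2.

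Before the members, 3 facts of the libraries bear on them. *Bmal1*, listed as *Arntl*, had 358 and 342 normalized counts in the WT mice and 341 and 289 in the mice labelled cKO, or -0.16 on the log2 scale (SE 0.14, limma adjusted p = 0.389). Its level therefore does not show the loss that the cKO label implies and gives no check that the gene was lost. Whether a transcript without function persisted after deletion or a label is wrong was not tested, and cKO below means a library with that label, for each direction given. A normalized count is a gene's reads after division by a size factor that evens out sequencing depth, and the libraries held between 10312791 and 14156639 reads on the listed genes. Markers of other cell types were detected in the WT libraries, and 10 of the 10 neutrophil markers tested, 11 of 14 macrophage and monocyte markers, 10 of 12 fibroblast markers and 10 of 12 endothelial and muscle markers passed the test as lower, as did 27.7% of all genes. The log2 fold changes also followed GC content over all genes, with a Spearman correlation across genes of -0.61. The 9 members, with a GC content of 41.3% to 49.0%, all fall in classes of like GC content whose median log2 fold change was above 0, between 0.17 and 0.79.

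The sequences shown first are the 250 bases before the start site of 4 members, *Il1b*, *Il1rn* and *Il1r2*, which were lower in the libraries labelled cKO, and *Il18*, which was higher. BMAL1 with its partner CLOCK binds the E-box, here searched as CACGTG, and AP-1 binds TGANTCA, which were sought on both strands together with the NF-kB consensus in windows reaching from 250 bases before to 50 bases after each start site. The windows are from RefSeq on GRCm38.p6, which held 14 windows for all 9 members, and each line runs 5′ to 3′ on the strand of the gene with matches in capitals. The *Il1b* stretch is chr2:129371140-129371389 (minus strand), that of *Il1rn* chr2:24336610-24336859 (plus), that of *Il18* chr9:50554450-50554699 (plus) and that of *Il1r2* chr1:40085843-40086092 (plus).
Il1b: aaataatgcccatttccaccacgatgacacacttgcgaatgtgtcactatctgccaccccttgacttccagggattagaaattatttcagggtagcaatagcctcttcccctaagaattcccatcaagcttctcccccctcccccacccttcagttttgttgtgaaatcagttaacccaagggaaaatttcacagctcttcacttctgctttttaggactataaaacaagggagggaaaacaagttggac
Il1rn: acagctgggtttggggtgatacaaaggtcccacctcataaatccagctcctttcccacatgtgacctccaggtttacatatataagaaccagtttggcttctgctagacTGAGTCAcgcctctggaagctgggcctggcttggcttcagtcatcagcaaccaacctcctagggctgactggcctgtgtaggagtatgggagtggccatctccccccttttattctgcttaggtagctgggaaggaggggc
Il18: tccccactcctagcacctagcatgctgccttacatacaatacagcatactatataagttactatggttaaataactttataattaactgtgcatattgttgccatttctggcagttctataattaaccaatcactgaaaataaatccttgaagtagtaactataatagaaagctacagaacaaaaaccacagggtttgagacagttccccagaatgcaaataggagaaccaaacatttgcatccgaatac
Il1r2: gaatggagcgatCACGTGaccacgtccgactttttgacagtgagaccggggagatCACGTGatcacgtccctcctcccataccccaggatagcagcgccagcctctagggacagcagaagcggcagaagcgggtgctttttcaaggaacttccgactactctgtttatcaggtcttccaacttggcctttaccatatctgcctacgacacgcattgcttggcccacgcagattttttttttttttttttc

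The E-box CACGTG was found in 1 of the 14 windows. This was the *Il1r2* window, which held 2 matches, starting 238 and 195 bases before the start site. Of all 32851 RefSeq windows of this length 7.15% held at least 1 match and 0.594% held 2 or more. This *Il1r2* start site lies 12014 bp inside the gene as the GENCODE annotation draws it, and reads per gene do not show which start site was used. TGANTCA, present in 7.81% of all windows, was found in the most upstream of the 3 *Il1rn* windows, 141 bases before the start, and in the *Il1a* window, 12 bases before the start. An NF-kB consensus match, present in 8.46% of all windows, was found 232 bases before 1 of the 2 *Il1r1* start sites. None of the 3 motifs was found in the *Il1b* and *Il18* windows. These matches describe letters in the windows, and binding was not measured here.

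Of the 9 genes, *Il1b*, *Il1rn*, *Il1r2* and *Il1rl1* were lower in the libraries labelled cKO, *Il18* was higher, and *Il1a*, *Il33*, *Il1r1* and *Il1rap* did not pass the test. That is 44.4% of the members lower and 11.1% higher, where 27.7% of all genes tested were lower (3871) and 29.0% were higher (4059). The median log2 fold change was -1.44 over the 9 members and -0.04 over all genes tested, whose 5th and 95th percentiles were -3.14 and 1.49. The groups did not overlap for 6 of the 9 members, below the 82.1% of all genes tested. Scaled by library total, the genes lower and higher numbered 4885 and 3091 and the median over all genes moved to -0.26, while the members lower and higher remained 4 and 1. With 2 mice per group an exact permutation test of a single gene, two-sided, cannot give a p below 0.333, so the calls rest on the spread pooled over genes by limma. Fewer cells of a type and less RNA per cell cannot be told apart in bulk RNA.

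**Figure D1:**
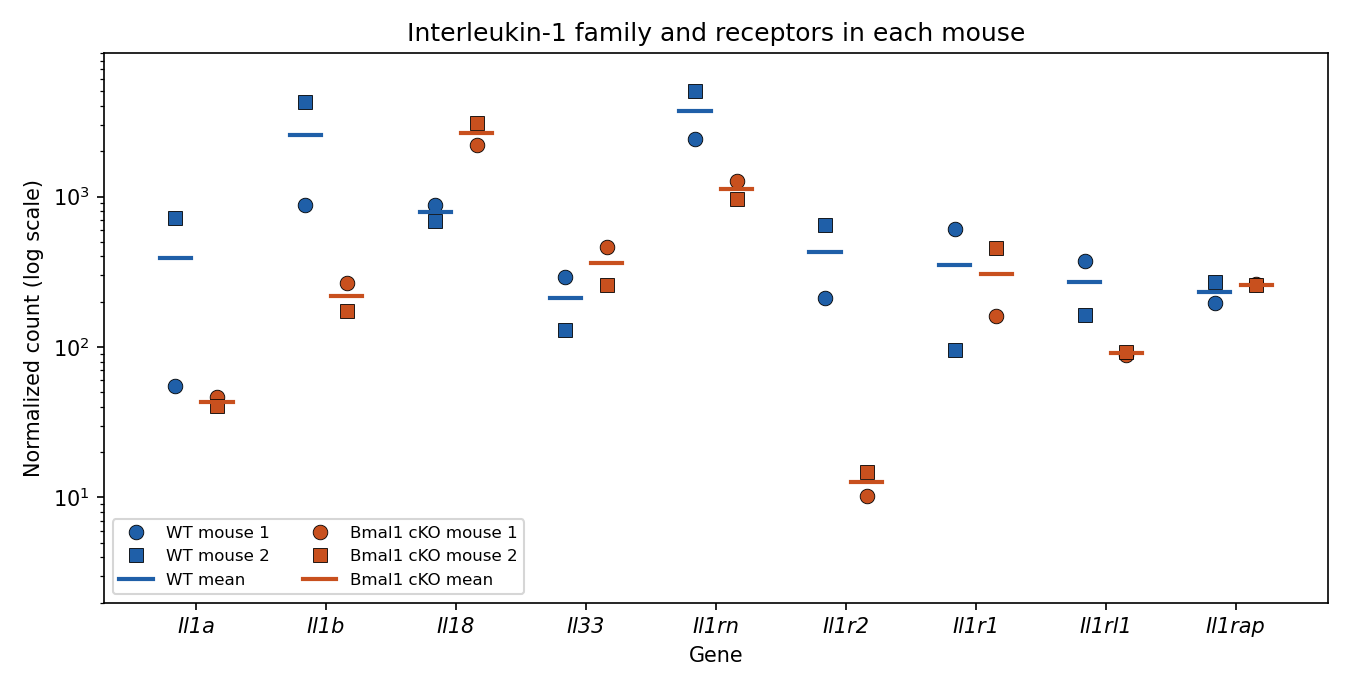
Normalized counts (log axis) of the 9 genes in each mouse, with circles for mouse 1, squares for mouse 2 and a line at the mean of each group (n = 2). *Il18* was higher in both cKO mice than in both WT mice, and *Il1b*, *Il1rn*, *Il1r2* and *Il1rl1* were lower in both. For *Il1a*, *Il1b* and *Il1r1* the WT mice lay far apart.

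Among the ligands, *Il1b* encodes the main secreted IL-1 of activated myeloid cells and was lower in the libraries labelled cKO. It lies at chr2:129364570-129371139 of GRCm38 on the minus strand (ENSMUSG00000027398). It was measured at 879 and 4261 normalized counts in WT mice 1 and 2 and at 265 and 173 in cKO mice 1 and 2. Both cKO mice were below both WT mice, and WT mouse 2 stood well above WT mouse 1. The means were 2570 ± 2392 (SD, n = 2) and 219 ± 65.3 (SD, n = 2), an 11.7-fold difference of means. In the fit, *Il1b* was at -3.17 on the log2 scale (SE 0.72, limma adjusted p = 0.0148). The value was -4.31 without WT mouse 1 and -2.03 without WT mouse 2. Without cKO mouse 1 the log2 fold change was -3.48 (adjusted p = 0.0893) and without cKO mouse 2 it was -2.86 (adjusted p = 0.128), so with 3 libraries the call was lost in both cases.

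*Il1a*, which encodes the IL-1 held inside cells and released on damage, lies 54.6 kb from *Il1b* on the same strand, at chr2:129299610-129309972 (ENSMUSG00000027399). It had 54.9 and 721 normalized counts in the WT mice and 46.3 and 40.6 in the mice labelled cKO. The groups did not overlap, but WT mouse 1 was closer to the mice labelled cKO than to WT mouse 2. Its log2 fold change of -2.18 had a 95% interval from -5.06 to 0.69 and did not pass the test (adjusted p = 0.154). WT mouse 2 decided this value, since it was -4.03 without WT mouse 1 (adjusted p = 0.0141) and -0.34 without WT mouse 2 (adjusted p = 0.501). An antisense transcript, *Gm14023*, shares 222 exonic bp with *Il1a* and had 7.60 and 39.0 normalized counts in the WT mice and 12.3 and 5.41 in the mice labelled cKO. The strand setting of the counting is not given in the sources used here, so reads of the pair cannot be told apart in those bases.

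*Il18*, which encodes the IL-18 precursor that colonic epithelial cells make constantly, went the other way. It lies at chr9:50554827-50581840 on the plus strand (ENSMUSG00000039217). It had 877 and 693 normalized counts in the WT mice and 2186 and 3066 in the mice labelled cKO. Both cKO mice lay above both WT mice, and the mice of each group were close to each other. The means were 785 ± 130.1 (SD, n = 2) and 2626 ± 622 (SD, n = 2), which is 3.35-fold higher in the libraries labelled cKO. In the fit, *Il18* was at 1.73 on the log2 scale (SE 0.20, limma adjusted p = 0.00155). Genes of like GC content had a median log2 fold change of 0.57, and corrected for GC content and length *Il18* was at 1.31 (adjusted p = 0.00742). The call was kept in all 15 alternatives, between 1.31 and 1.97. Genes on the opposite strand overlap *Il18* without sharing exonic bases. *Tex12* had 20.3 and 17.8 normalized counts in the WT mice and 87.4 and 147 in the mice labelled cKO (log2 fold change 2.52, adjusted p = 0.00391), and *Bco2* had 38.9 and 62.7 against 109 and 205 (log2 fold change 1.58, adjusted p = 0.0232). Both rose with *Il18* at much lower counts, and the part of shared reads in this was not tested.

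*Il33*, which encodes the nuclear alarmin of epithelial, endothelial and stromal cells, lies at chr19:29925114-29960718 on the plus strand (ENSMUSG00000024810). It had 294 and 129 normalized counts in the WT mice and 463 and 258 in the mice labelled cKO. The groups overlapped, since cKO mouse 2 was below WT mouse 1. Its log2 fold change of 0.83 had a 95% interval from -0.33 to 1.99 and did not pass the test (adjusted p = 0.176). With the mouse number as a block it passed (adjusted p = 0.0127), and corrected for GC content and length it was at 0.07, so the value depended on the model.

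*Il1rn* encodes the antagonist that occupies IL1R1 without signalling. Its RefSeq start sites lie 7, 8438 and 8518 bp from the annotated start of the gene. The window shown above belongs to the most upstream site, and reads per gene do not show which site was used. It lies at chr2:24336853-24351494 on the plus strand (ENSMUSG00000026981). It was measured at 2409 and 5053 normalized counts in the WT mice and 1269 and 964 in the mice labelled cKO. The antagonist was therefore lower in the same libraries in which *Il1b* was lower. The means were 3731 ± 1869 (SD, n = 2) and 1117 ± 216 (SD, n = 2), a 3.34-fold difference. On the log2 scale this was -1.66 (SE 0.36, limma adjusted p = 0.0120). The call was lost without cKO mouse 1 (-1.86, adjusted p = 0.0719) or cKO mouse 2 (-1.46, adjusted p = 0.113). Corrected for GC content and length the value was -2.55, and the 11 alternatives that used every library all kept the call.

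The decoy receptor gene *Il1r2*, whose product binds IL-1 without signalling and is known from neutrophils and other myeloid cells, showed the largest fold change of the 9. It lies at chr1:40074079-40125231 on the plus strand (ENSMUSG00000026073). Its normalized counts were 210 and 646 in the WT mice and 10.3 and 14.9 in the mice labelled cKO, from 249 and 763 reads against 10 and 11. The cKO reads were thus few but above the floor of 3 reads used here for detection. The means were 428 ± 308 (SD, n = 2) and 12.6 ± 3.24 (SD, n = 2), a 34.1-fold difference. The fitted value was -4.79 on the log2 scale (SE 0.57, limma adjusted p = 0.00175), below the 5th percentile of all genes tested. Its call was kept in all 15 alternatives, between -5.60 and -3.98. This is the gene whose window, shown above, held both E-box matches.

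The signalling receptor gene *Il1r1* did not move in one direction. It lies at chr1:40225080-40317257 on the plus strand (ENSMUSG00000026072). It had 604 and 95.7 normalized counts in the WT mice and 161 and 453 in the mice labelled cKO. Each group held 1 high and 1 low mouse, and both cKO values lay between the WT values. The log2 fold change of 0.17 had a 95% interval from -2.17 to 2.51 (adjusted p = 0.887), which leaves room for a large change in either direction, and its sign turned in 7 of 15 alternatives.

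*Il1rl1*, which encodes the IL-33 receptor ST2 of mast cells, innate lymphoid cells and some T cells, lies at chr1:40429570-40465415 on the plus strand (ENSMUSG00000026069). It had 375 and 164 normalized counts in the WT mice and 88.5 and 93.3 in the mice labelled cKO. The cKO mice were nearly equal and both below the lower WT mouse. The means were 270 ± 149 (SD, n = 2) and 90.9 ± 3.40 (SD, n = 2), a 2.97-fold difference. On the log2 scale this was -1.44 (SE 0.40, limma adjusted p = 0.0282). The call was lost without WT mouse 1 (-0.85, adjusted p = 0.0873), without cKO mouse 1 (-1.40, adjusted p = 0.154) and without cKO mouse 2 (-1.48, adjusted p = 0.141). Thus *Il1rl1* was lower while its ligand gene *Il33* was not called in either direction.

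*Il1rap* encodes the chain that completes the IL-1 and IL-33 receptors. It lies at chr16:26581704-26730117 on the plus strand (ENSMUSG00000022514). It had 195 and 272 normalized counts in the WT mice and 261 and 258 in the mice labelled cKO, and the cKO values fell inside the WT range. The log2 fold change of 0.17 had the narrowest 95% interval among the 4 members that were not called, from -0.33 to 0.68 (adjusted p = 0.491). Corrected for GC content and length it was -0.69 (adjusted p = 0.0469), so that its direction turned and it passed the threshold, and with the replicate block added to the correction it did not pass (adjusted p = 0.0615). An antisense gene, *Gm20319*, shares 552 exonic bp with *Il1rap* and had no value in the table used here.

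**Figure D2:**
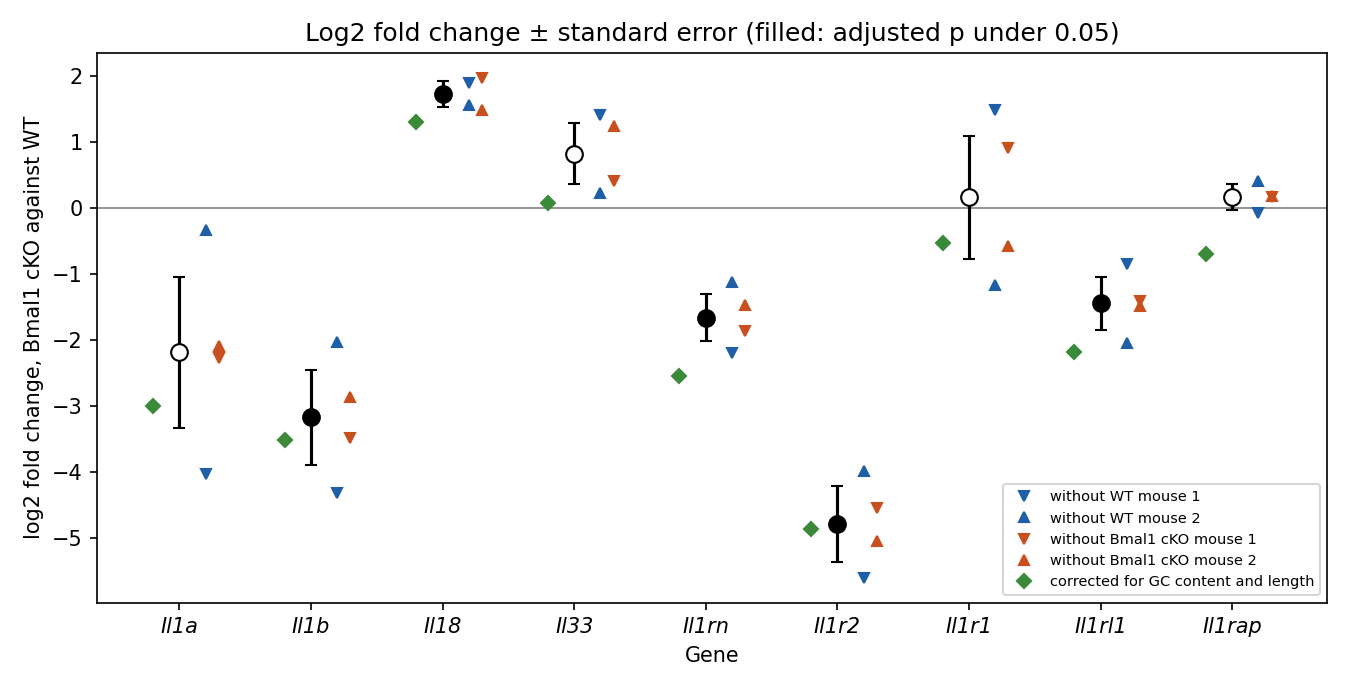
Log2 fold change of each gene, cKO against WT, as black circles with the standard error (filled where the adjusted p was under 0.05), beside the values without each mouse (triangles) and corrected for GC content and length (diamonds). *Il18* stayed above 0 and *Il1b*, *Il1rn*, *Il1r2* and *Il1rl1* stayed below 0 at each point shown, whereas *Il1r1* and *Il1rap* fell on both sides.

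The order of the members by level, compared per kilobase of exon, differed between the groups. A gene's exon length here merges the exons of all its annotated transcripts. By counts alone the WT mean of *Il1rn* (3731) was above that of *Il1b* (2570). In the WT mice *Il1b* came first with a mean of 1348 normalized counts per kb, followed by *Il18* at 761 and *Il1rn* at 674, and the ranges of these neighbours overlapped. The order differed by mouse, with *Il18* (851) above *Il1b* (461) in WT mouse 1 and *Il1a* (365) above *Il1r2* (339) in WT mouse 2. The other 6 were lower, from *Il1r2* at 224 through *Il1a* at 196, *Il33* at 73.2, *Il1r1* at 55.0 and *Il1rl1* at 39.1 to *Il1rap* at 20.6, and the ranges of each neighbouring pair among these 6 overlapped. In the mice labelled cKO *Il18* stood first at 2547 per kb, apart from *Il1rn* at 202, which was apart from *Il33* at 125 and *Il1b* at 115, whose ranges overlapped. *Il1r1* followed at 48.3, apart from its neighbours. *Il1rap* at 22.9 and *Il1a* at 22.0 overlapped, then came *Il1rl1* at 13.2 and *Il1r2* last at 6.59. *Il1r2*, next after the 3 leading genes by the mean of the WT mice, was thus last in the mice labelled cKO.

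Ratios within a library do not depend on the size factor, and these are per kilobase. *Il1rn* over *Il1b*, antagonist over ligand, was 0.945 and 0.408 in the WT mice and 1.65 and 1.92 in the mice labelled cKO. Without division by length it was 2.74 and 1.19 against 4.78 and 5.57, so *Il1rn* had more counts than *Il1b* in each library. *Il1r2* over *Il1r1*, decoy over signalling receptor, was 1.16 and 22.5 in the WT mice and 0.212 and 0.110 in the mice labelled cKO. *Il18* over *Il1b* was 1.85 and 0.301 against 15.2 and 32.8. The groups did not overlap in any of these ratios. For *Il18* over *Il1b* this was given in advance, since *Il18* was higher and *Il1b* lower in both cKO libraries. How often such ratios overlap over all genes was not computed. *Il18* over *Il18bp*, the gene of the secreted IL-18 binding protein, was 10.1 and 11.4 against 20.3 and 37.8. For *Il1a* over *Il1b* the ratio was 0.0604 and 0.163 in the WT mice and 0.168 and 0.226 in the mice labelled cKO, with WT mouse 2 next to cKO mouse 1.

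The WT mice differed from each other, and the members split by direction. On the log2 scale WT mouse 2 was above WT mouse 1 by 3.69 for *Il1a*, 2.28 for *Il1b*, 1.61 for *Il1r2*, 1.07 for *Il1rn* and 0.48 for *Il1rap*. WT mouse 2 was below WT mouse 1 for the rest, at -2.65 for *Il1r1*, -1.19 for *Il1rl1*, -1.18 for *Il33* and -0.34 for *Il18*. Neutrophil markers ran in the first direction between the same mice, with a median of 2.01 and 9 of 11 higher in WT mouse 2. Fibroblast markers ran in the second, with a median of -1.82 and 0 of 12 higher in WT mouse 2, as did macrophage and monocyte markers (median -1.55) and T, B and plasma cell markers (median -2.71). Epithelial markers had a median of 0.32, with 13 of 14 higher in WT mouse 2.

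**Figure D3:**
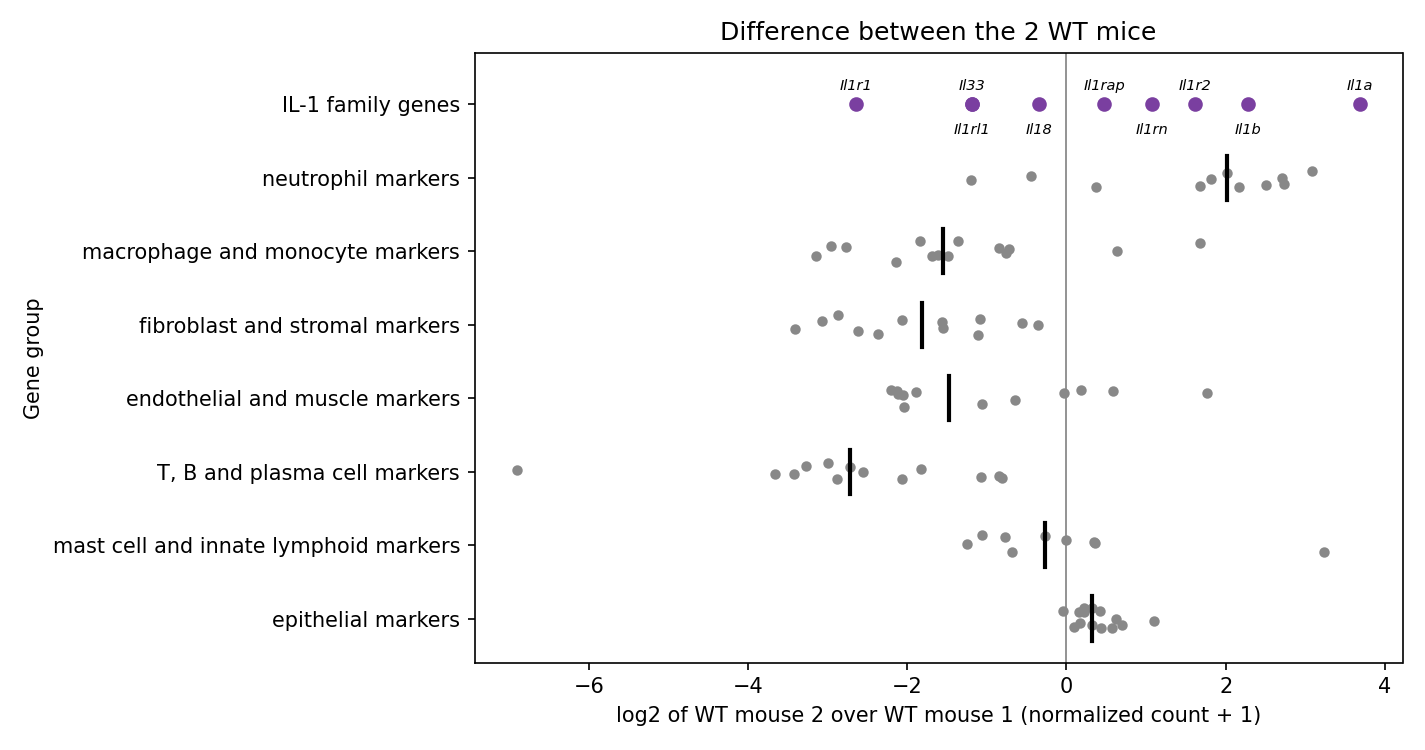
Log2 difference between the WT mice (mouse 2 over mouse 1, normalized count + 1) for the 9 IL-1 family genes and for each marker gene (grey, with the median of each list as a line). *Il1a*, *Il1b* and *Il1r2* lay on the side of the neutrophil markers (median 2.01), *Il1r1*, *Il33* and *Il1rl1* on the side of the fibroblast markers (median -1.82), and *Il18* near 0.

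The same marker lists moved between the groups beside the members. Summed over the list, neutrophil markers had 9590 and 28326 normalized counts in the WT mice and 3627 and 2907 in the mice labelled cKO, of which *Ly6g* alone held 5801 and 7474 against 2918 and 2549, and *Ngp* and *Camp* were at 0 reads in both cKO libraries, while *Mmp8* had 200 and 1333 reads against 4 and 3. Macrophage and monocyte markers summed to 9613 and 8509 against 2057 and 1978, of which *Cd14*, which was not called, held 1636 and 5241 against 1479 and 1237. In this list *Cd163* was at 0 in both cKO libraries, *C1qa* at 703 and 89 reads in the WT mice against 4 and 2, and *C1qc* at 540 and 60 against 2 and 3. Fibroblast markers summed to 17392 and 4556 against 677 and 810, with *Col1a1* at 1719 and 408 against 35.0 and 28.4 and *Postn* at 695 and 82.2 against 5.14 and 10.8. Markers of mast cells and innate lymphoid cells, which carry ST2, summed to 2280 and 3184 against 1175 and 1383. Of these counts *Areg* held 1306 and 1304 against 751 and 735 and *Kit* 385 and 495 against 304 and 545. Of the 14 markers 5 had no row in the table used here, and 6 of 7 tested were lower. *Cpa3* (16 and 7 reads against 8 and 2) and *Gata3* (10 and 13 against 13 and 1) were too low to test. *Hdc* had 118 and 1117 normalized counts against 43.2 and 24.3, and *Mcpt1* had 196 and 82.2 against 15.4 and 18.9. Between the WT mice *Hdc* thus ran with the neutrophil markers and *Mcpt1* against them. T, B and plasma cell markers summed to 9498 and 391 against 211 and 438, with *Jchain* alone, which was not called, holding 7216 in WT mouse 1, with 5 of 12 lower, *Cd2* at 0 in both cKO libraries and *Cd79a* at 559 and 43.2 against 5.14 and 6.76, and endothelial and muscle markers summed to 3614 and 2205 against 83.3 and 124, with *Rgs5* at 595 and 285 reads against 1 and 0 and *Des* at 216 and 325 against 0 and 1. Leaving out a cKO mouse cost many of these calls, as it did over all genes, and left almost none in the T, B and plasma cell list. Without cKO mouse 1 and without cKO mouse 2 the median log2 fold change was -4.31 and -3.15 for neutrophil markers. It was -3.04 and -3.31 for macrophage and monocyte markers, -3.47 and -3.89 for fibroblast markers and -4.96 and -4.32 for endothelial and muscle markers. For mast cell and innate lymphoid markers it was -2.10 and -2.59, and for T, B and plasma cell markers -1.92 and -2.93. Of the T, B and plasma cell markers 2 were lower without WT mouse 1 and 9 without WT mouse 2. The part of these cells in the lower *Il1b*, *Il1rn*, *Il1r2* and *Il1rl1* was not tested. Epithelial markers summed to 228741 and 300721 against 187809 and 211692, with 5 of 14 lower and 2 higher, beside 27.7% and 29.0% over all genes, or 0 lower and 6 higher once corrected for GC content and length, and 3 lower and 0 higher without cKO mouse 1 and likewise without cKO mouse 2. *Muc2*, a goblet cell mucin gene, alone held 62753 and 101737 of these counts against 24129 and 37690. *Slc26a3*, the chloride exchanger gene of surface colonocytes, went the other way, at 2200 and 4707 normalized counts in the WT mice and 13157 and 15104 in the mice labelled cKO (log2 fold change 2.13, adjusted p = 0.00486). *Cdx2*, a transcription factor of intestinal identity, was lower, at 1440 and 2135 against 575 and 693 (-1.47, adjusted p = 0.00301). Corrected for GC content and length it was at -0.51 and was not called (adjusted p = 0.119). The part of the epithelial share of the cells in the higher *Il18* was not tested.

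The genes whose profile over the 4 libraries was most like that of *Il1b*, by Euclidean distance between centred log2 profiles over 9982 genes, were *Lilr4b* (distance 0.183), *Clec4d* (0.215) and *Fosb* (0.429). *Lilr4b* had 356 and 1545 normalized counts in the WT mice and 113 and 71.6 in the mice labelled cKO. Those most like *Il18* were *Gm16015* (0.0897), *Sult1c2* (0.179) and *Pcmtd2* (0.191). *Pcmtd2* had 503 and 404 normalized counts in the WT mice and 1261 and 1522 in the mice labelled cKO.

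On chromosome 1 the receptor genes of the family lie side by side over 478 kb, all on the plus strand, in the order *Il1r2*, *Il1r1*, *Il1rl2*, *Il1rl1*, *Il18r1* and *Il18rap*. Their log2 fold changes were -4.79, 0.17, -0.86, -1.44, -0.31 and -2.15 in that order. The 3 called genes, *Il1r2*, *Il1rl1* and *Il18rap*, were not next to each other in the cluster. *Il1rl1* and *Il18r1* are 0.137 kb apart, and only *Il1rl1* was called (*Il18r1*, with 5 to 19 reads per library, had an adjusted p of 0.756), while the difference between these genes was not tested.

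Of 12 further genes of the family, 5 were listed and 1 passed the test, as lower, beside 27.7% of all genes. This was *Il18rap*, the signalling chain of the IL-18 receptor, with 58.3 and 119 normalized counts in the WT mice and 29.8 and 10.8 in the mice labelled cKO (log2 fold change -2.15, SE 0.62, limma adjusted p = 0.0319), a call that was lost without WT mouse 1, without WT mouse 2 and without cKO mouse 2. *Il1rl2*, the receptor gene for IL-36, had 71.8 and 40.7 against 27.8 and 31.1 and was not called (adjusted p = 0.131). *Il18bp* had 255 and 179 against 316 and 238 (adjusted p = 0.251). *Sigirr*, an inhibitory receptor of the colonic epithelium, had 420 and 454 against 633 and 442 (log2 fold change 0.28, adjusted p = 0.263), and corrected for GC content and length it was at 1.19 and was called higher (adjusted p = 0.00758). The IL-36 genes *Il36a*, *Il36b*, *Il36g* and *Il36rn*, with *Il1f10*, *Il1rapl1* and *Il1rapl2*, had no row in the table used here. *Il18* was therefore higher while *Il18rap* was lower and *Il18bp* was not called.

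The inflammasome genes, which control the cutting and release of IL-1β and IL-18, divided. Of 19 tested, 10 were higher, 5 were lower and 4 were not called, with a median log2 fold change of 0.54, beside 29.0% higher and 27.7% lower over all genes. Corrected for GC content and length 7 were higher and 4 lower and the median was -0.05, so the balance of this list depended on the processing, and 2 were lower without WT mouse 2 and likewise without cKO mouse 2. *Casp1*, the protease that cuts both cytokines, had 975 and 1107 normalized counts in the WT mice and 3832 and 4036 in the mice labelled cKO (log2 fold change 1.92, SE 0.10, limma adjusted p = 5.33e-04), or 1.09 once corrected for GC content and length (adjusted p = 0.00316). *Casp1* and *Il18* were thus higher in both cKO libraries. The others higher were *Pycard*, the adaptor, *Aim2*, *Nlrp6*, *Nek7*, *Nlrc4* and *Naip1*, *Naip2*, *Naip5* and *Naip6*, close paralogs whose reads cannot be assigned with certainty, and the correction did not keep *Aim2*, *Nek7* and *Nlrc4*. *Nlrp3*, the sensor of myeloid cells, had 94.6 and 639 normalized counts in the WT mice and 31.9 and 12.2 in the mice labelled cKO (log2 fold change -3.57, adjusted p = 0.0250). It shared with *Il1b* the gap between WT mice 1 and 2. *Mefv*, the pyrin sensor, was also lower (-3.08, adjusted p = 0.00374), as was *Ninj1*, which ruptures the membrane of dying cells (-2.49, adjusted p = 6.82e-04, or -1.22 once corrected). The remaining genes lower were *Card9* and *Gsdmd*, which after correction were at -2.98 (adjusted p = 0.0692) and -0.08 (adjusted p = 0.699). *Casp4*, which was not called (0.30, adjusted p = 0.155), is among the 4 lower after correction (-0.87, adjusted p = 0.0114).

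Of 30 genes that carry the signal from the receptor to NF-kB and MAP kinases, 12 were lower, 10 were higher and 8 were not called, beside 27.7% lower and 29.0% higher over all genes, with a median log2 fold change of -0.16. Corrected for GC content and length 11 were lower and 4 higher. *Irak3*, a brake on the pathway, had 150 and 222 normalized counts in the WT mice and 24.7 and 44.6 in the mice labelled cKO (log2 fold change -2.42, adjusted p = 0.00443). The NF-kB subunit genes *Nfkb2* (-2.34, adjusted p = 5.33e-04) and *Rela* (-1.85, adjusted p = 5.33e-04) and the kinase gene *Map3k8* (-1.80, adjusted p = 0.0156) were lower. Genes with the GC content of *Nfkb2* and *Rela* had a median of -1.35, and corrected for GC content and length *Nfkb2* was at -1.12 (adjusted p = 0.00413) and *Rela* at -0.64 (adjusted p = 0.0101). *Myd88*, the adaptor shared by these receptors, was not called (-0.36, adjusted p = 0.0777). The genes higher were *Peli1*, *Chuk*, *Ikbkg*, *Traf6*, *Map3k7*, *Tab2*, *Tab3*, *Mapk8*, *Irak4* and *Ube2n*. Of these 10, the correction kept 2 as higher (*Traf6* and *Tab2*) and turned *Ube2n* to lower (-0.55, adjusted p = 0.0104).

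Genes known to be induced by IL-1, many of which also respond to other cytokines and microbes, formed the last list. Of 21 tested, 11 were lower, where 27.7% of all genes were, 1 was higher (*Nfkbiz*, 0.53, adjusted p = 0.0417) and 9 were not called, with a median log2 fold change of -1.83, and 7 to 10 were lower with 1 mouse left out, the fewest without cKO mouse 2. Corrected for GC content and length 11 were lower, 8 of them the same genes and *Cxcl3* (adjusted p = 0.0444) among the added ones, and *Nfkbiz* was no longer called (adjusted p = 0.0567). *Saa3*, an acute-phase protein gene, had 5004 and 3225 normalized counts in the WT mice and 62.7 and 46.0 in the mice labelled cKO (log2 fold change -6.20, adjusted p = 5.33e-04). *Lcn2*, which encodes an iron-trapping antibacterial protein, had 1201 and 3486 against 12.3 and 4.06. *Csf3*, the gene of the neutrophil growth factor G-CSF, had 198 and 404 reads in the WT mice and 0 and 1 in the mice labelled cKO, at least 71.3-fold lower against a floor of 3 reads per library. *Cxcl2*, a neutrophil chemoattractant gene, had 559 and 4157 against 181 and 82.5 (log2 fold change -3.63, adjusted p = 0.0229), and WT mouse 2 was again above WT mouse 1. *Il6*, *Ccl2* and *Cxcl3*, chosen here after their values were seen, were not called (adjusted p = 0.164, 0.0992 and 0.0509), and for each the WT mice differed widely.

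**Figure D4:**
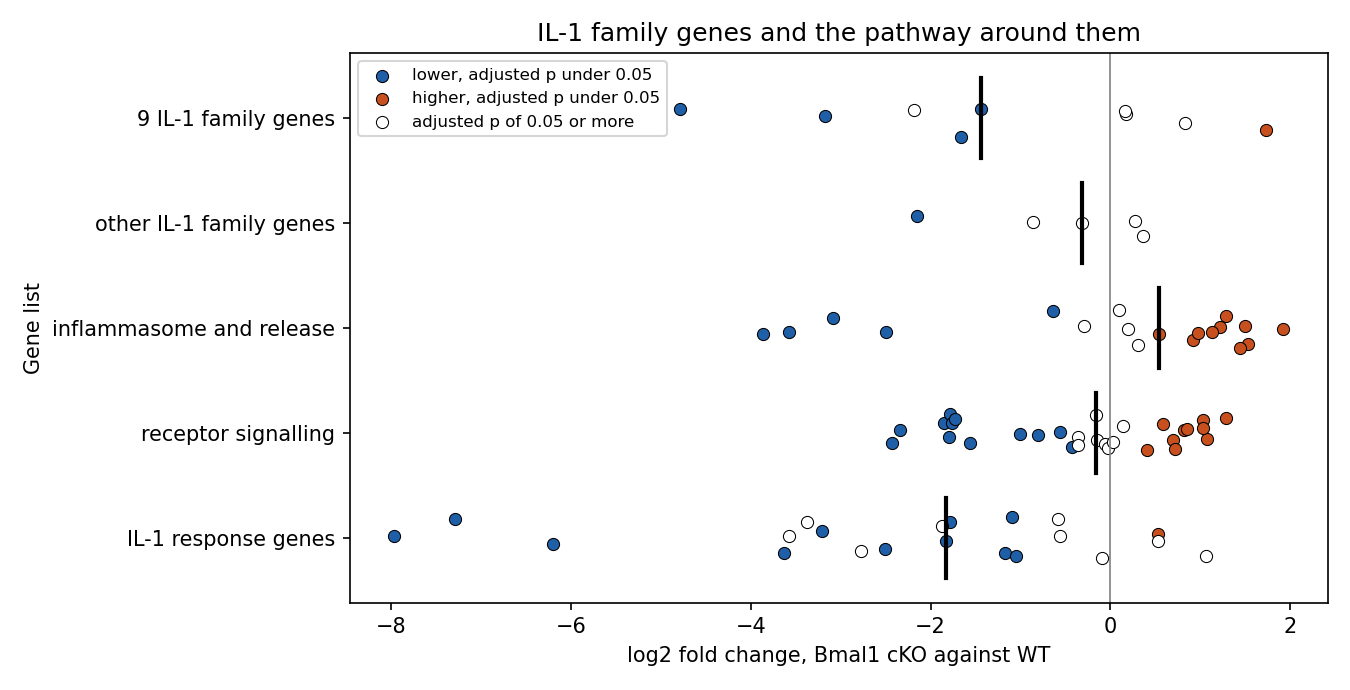
Log2 fold change (cKO against WT) of the tested genes of the IL-1 family and of the lists around it, coloured by call, with the median of each list as a line. The 9 IL-1 family genes spread from -4.79 to 1.73, the inflammasome list holds genes on both sides (5 lower, 10 higher), and 18 of the 21 response genes lie below 0 (median -1.83).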

How the data were processed

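The authors aligned reads to GRCm38 with STAR and normalized them with DESeq2, per the labels and the study's methods. The counter, its strand setting and the annotation release are not given in the sources used here, and the labels and methods name different library kits. The values the authors deposited per library are a signal: read counts per gene after division by DESeq2 size factors. The deposited columns of the authors' own comparison (log2 fold changes with errors, a Wald score and p-values) were not used. Whole reads were recovered from 100% of the values in each library (tolerance 0.02 reads). Depth was 10312791 to 14156639 reads on listed genes, and floors cover counting error only.

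Values were taken to log2(value + 1), which understates changes of low genes, and 13983 genes with a mean of at least 10 were tested with limma 3.58.1 (mean-variance trend, two-sided, Benjamini-Hochberg over all genes, threshold 0.05). Alternatives were pseudocounts of 0.5 and 5, no filter or a mean of at least 50, library total and TMM scaling, edgeR 4.0.16 and DESeq2 1.42.0 on the recovered reads, the mouse number as a block, loess correction for GC content and length (span 0.3), both together, and leaving out each mouse, where the lone mouse is assumed to vary like the other group. Coordinates and lengths are from GENCODE on GRCm38, which matched 16003 of 16015 genes. With 200 changed genes simulated among 13983, 136 of them and 16 unchanged genes were called. The simulation held far fewer changed genes than were called here and no GC trend, so it does not measure the error rate of these calls. The mice of a group differed beyond sampling noise (chi-square per gene 46.2 for WT and 11.1 for cKO).

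The members, lists and tests were chosen with earlier results of these data known. Named were the 9 members, all listed genes of the further family, and from each pathway list up to 4 genes (each marker list up to 2) with the largest called change, no overlap between groups and a mean of at least 50. For *Il1b* and *Il18* the 3 nearest profiles with a mean of 100 or more were also named. Other genes of the lists that the text names (such as *Muc2*, *Ly6g*, *Camp*, *Cd163*, *Cd2* and *Myd88*) were chosen after their values were seen.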

Additional observations from a re-analysis of the deposited data

How the results depend on the processing

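*Il18* and *Il1r2* kept their direction and call in all 15 alternatives, and *Il1b*, *Il1rn* and *Il1rl1* in the 11 that kept every mouse. The number of members lower ranged from 1 to 4 when 1 mouse was left out, with 1 without either cKO mouse. The genes lower ranged from 2205 to 2852 and the genes higher from 2654 to 3154 in these fits. Corrected for GC content and length, 2458 genes were lower and 2570 higher, and with the replicate block added 2077 and 2177. The replicate block alone gave 3789 lower and 3899 higher, and 2 members higher in place of 1 (*Il33* added). The deviations of same-numbered mice had a correlation of -0.09 over 2 pairs, which cannot show whether same-numbered mice share a litter or batch, and no source used here says that a number pairs mice. *Il1r1* turned direction with library total scaling (-0.058), edgeR (-0.22), DESeq2 (-0.20), the GC and length correction (-0.52) and that correction with the block (-0.52), and ranged from -1.16 to 1.49 with 1 mouse left out. *Il1rap* turned with library total scaling (-0.053), the correction (-0.69) and the correction with the block (-0.69), and ranged from -0.066 to 0.41 with 1 mouse left out. The causes were not tested. Depth limits *Il1r2* in the cKO mice, at 10 and 11 reads, and *Il18r1*.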
